A study of Homo sapiens with 4 samples.

Results

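The genes described here are 45 genes for receptors of serotonin, dopamine, noradrenaline, adrenaline and acetylcholine, out of 19821 protein-coding genes on chromosomes 1 to 22 and X. They were listed by name and not by a measured value, but with earlier results of these data known. The set held 13 serotonin receptor genes (HTR), 5 dopamine receptor genes (DRD) and 8 adrenergic receptor genes (ADRA and ADRB). It also held 5 muscarinic acetylcholine receptor genes (CHRM) and 14 nicotinic acetylcholine receptor subunit genes (CHRN). The study mapped H2AK119ub, histone H2A carrying a single ubiquitin on a lysine of its tail, by chromatin immunoprecipitation and sequencing in H1 cells, an established human embryonic stem cell line grown in mTeSR1. One group was wild type and labelled untreated. The other had received a short hairpin RNA against YTHDF1, a protein that binds methylated adenosine in messenger RNA. Each group had 1 H2AK119ub library, for which a peak list was analysed, and 1 input library, which was not analysed here.

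The labels name no control hairpin, so an effect of hairpin delivery and one of the loss of YTHDF1 cannot be told apart, and they do not say whether the knockdown line is a clone. With 1 library in each group there was no spread between replicates, no difference was tested, and no p-value is given. The lists hold peak positions and a score without reads, so the depth is unknown, and neither the knockdown of YTHDF1 nor the stem cell state can be checked in them. Genes called in 1 list alone may lie just under the calling threshold of the other library. The whole knockdown list held 34390 peaks covering 168 Mb, beside 32791 peaks covering 195 Mb in wild type, with median widths of 3.6 and 4.4 kb.

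Monoamine and muscarinic receptors are G protein-coupled receptors. They signal through Gs, which stimulates adenylyl cyclase, through Gi/o, which inhibits it, or through Gq/11, which activates phospholipase C. Nicotinic receptors and the serotonin receptors built from HTR3 subunits are ligand-gated ion channels made of subunits around a central pore. H2AK119ub is placed by Polycomb repressive complex 1, which in embryonic stem cells sits mainly at CpG-rich starts of developmental and neuronal genes that are kept silent.

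The letters around 4 starts show the range of promoters in the set. They were chosen, after their calls were seen, to show a start in a peak of both lists with many and with few CG dinucleotides, a start in a wild-type peak alone, and a start in no peak. Each line gives the 250 bases before the start, 5′ to 3′ on the gene's strand, from the RefSeq promoter table (GRCh38.p14, the coordinates of hg38), with CG in capitals. ADRA2C lies on the plus strand (chr4:3766135-3766384), as do DRD5 (chr4:9781384-9781633) and CHRM5 (chr15:33968247-33968496), and HTR1A lies on the minus strand (chr5:63962446-63962695).
ADRA2C: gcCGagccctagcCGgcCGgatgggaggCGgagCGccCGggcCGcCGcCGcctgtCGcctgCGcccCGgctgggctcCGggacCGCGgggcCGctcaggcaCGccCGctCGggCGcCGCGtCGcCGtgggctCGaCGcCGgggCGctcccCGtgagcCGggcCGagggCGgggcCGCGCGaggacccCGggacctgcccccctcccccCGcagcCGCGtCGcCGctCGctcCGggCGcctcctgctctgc
DRD5: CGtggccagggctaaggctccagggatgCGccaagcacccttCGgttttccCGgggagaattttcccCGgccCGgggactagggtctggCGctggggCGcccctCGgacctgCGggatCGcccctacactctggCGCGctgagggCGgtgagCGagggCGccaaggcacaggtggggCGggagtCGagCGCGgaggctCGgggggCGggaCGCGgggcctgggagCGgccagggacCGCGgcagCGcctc
HTR1A: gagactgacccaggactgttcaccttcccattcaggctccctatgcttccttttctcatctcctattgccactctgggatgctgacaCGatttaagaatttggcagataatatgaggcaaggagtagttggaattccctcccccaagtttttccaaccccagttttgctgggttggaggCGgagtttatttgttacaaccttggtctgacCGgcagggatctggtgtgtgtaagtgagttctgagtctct
CHRM5: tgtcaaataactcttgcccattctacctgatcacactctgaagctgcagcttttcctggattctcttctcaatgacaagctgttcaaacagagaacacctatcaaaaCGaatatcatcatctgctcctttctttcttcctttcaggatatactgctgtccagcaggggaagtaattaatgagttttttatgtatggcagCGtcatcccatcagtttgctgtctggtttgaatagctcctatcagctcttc
The ADRA2C stretch holds 44 CG and its start lay in a peak of both lists. DRD5 has 28 and its start lay in a wild-type peak alone. The start of HTR1A, with 3, lay in a peak of both lists, and that of CHRM5, with 2, lay in none. The dinucleotide CG reads the same on both strands, and 98.05% of all promoter windows hold at least 1.

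H2AK119ub was common around these receptor genes in both lists. A gene counts as marked here if a peak comes within 2 kb of one of its annotated ends. By this rule 37 of 45 receptor genes (82.2%) were marked in wild type, where 69.4% of all protein-coding genes were. In the knockdown list 36 (80.0%) were marked, again beside 69.4% of all genes. Marks in both lists were found at 35 of 45 receptor genes, beside 12813 of 19821 protein-coding genes. DRD5 and HTR1E were marked in wild type alone, where 4.78% of all genes were, and HTR3B in the knockdown list alone, beside the same 4.78%. No mark in either list was found at 7 receptor genes (15.6%), while 25.8% of all genes had none. Among the upper 50% of peaks by score the order of the lists turned, with 29 receptor genes marked in wild type and 32 in the knockdown list, beside 54.1% and 53.8% of all genes.

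Around 24 of the 45 receptor genes at least 1 kb less DNA lay in peaks in the knockdown list. Covered length is the length of DNA that peaks occupy in windows of 10 kb around both gene ends, with overlapping windows merged. It was at least 1 kb shorter at 24 receptor genes (53.3%), where 40.5% of all protein-coding genes were, and at least 1 kb longer at 9 (20%), where 20.2% were. The other 12 differed by less than 1 kb. The mean over the 45 genes was 10.2 kb in wild type and 8.43 kb in the knockdown list, a difference of -17.1%, beside 8.79 and 7.70 kb (-12.4%) over all protein-coding genes. The median difference per gene was -1.4 kb over the receptor genes and 0.0 kb over all genes. All genes include 4118 without covered length in either list, beside 4 receptor genes. Over genes with covered length in at least 1 list, the median was -2.0 kb for 41 receptor genes and -1.0 kb for 15703 protein-coding genes. Without the nicotinic subunits the difference of the means was -8.99%.

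**Figure D1:**
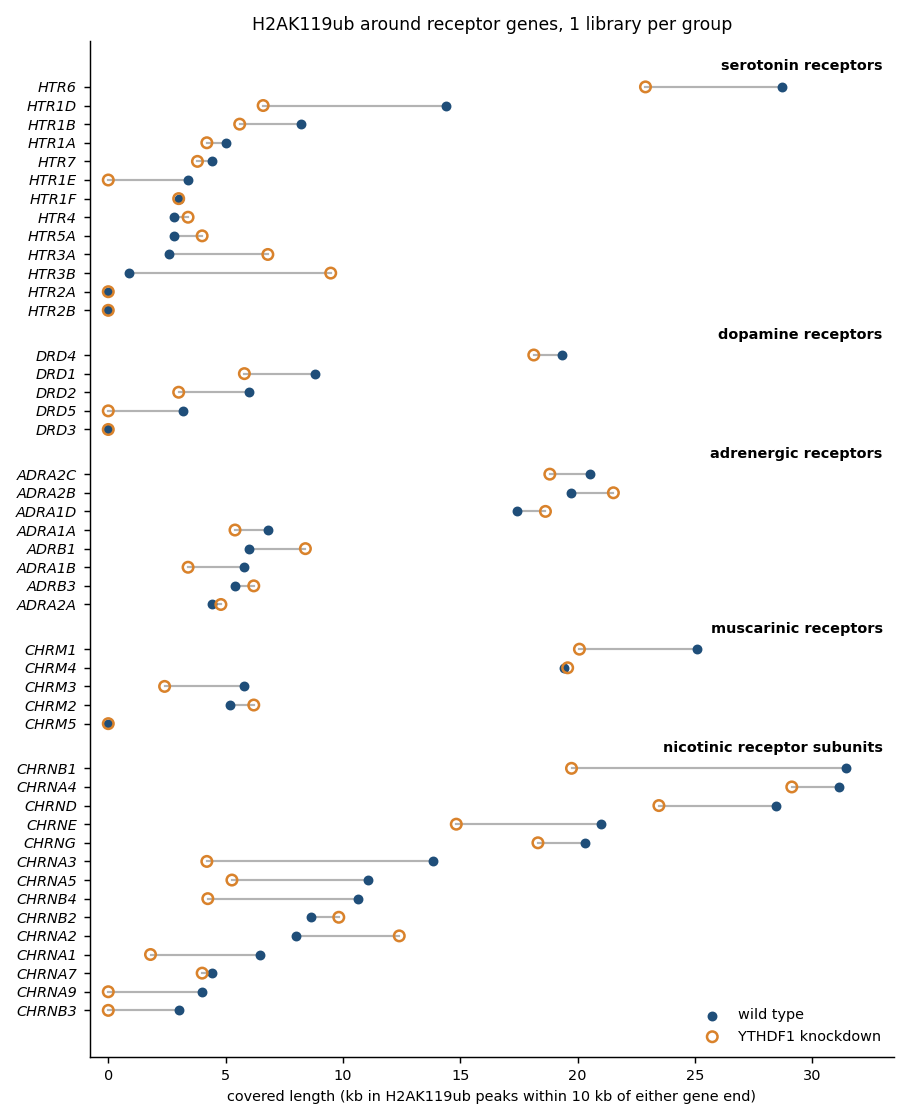
Covered length of each receptor gene in kb within 10 kb of either gene end, in the wild-type list (filled points) and the knockdown list (open circles), with 1 library per group and genes ordered within families by the wild-type value. Of the 45 genes, 24 lie at least 1 kb lower and 9 at least 1 kb higher in the knockdown list. At 4 genes no peak of either list lies within these windows.

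The families differed in the size of the difference. Over the 14 nicotinic subunits the mean covered length was 14.5 kb in wild type and 10.5 kb in the knockdown list (-27.3%), and over the 5 dopamine receptors 7.47 and 5.39 kb (-27.9%). The 5 muscarinic receptors had 11.1 and 9.65 kb (-13.0%) and the 13 serotonin receptors 5.86 and 5.37 kb (-8.4%). The serotonin value was -15.8% with lists of equal length and -13.9% without peaks under 2 kb. The 8 adrenergic receptors had 10.8 and 10.9 kb (1.28%), a direction that turned within 5 kb of the gene ends, where the difference was -6.81%. Differences between families were not tested.

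**Figure D2:**
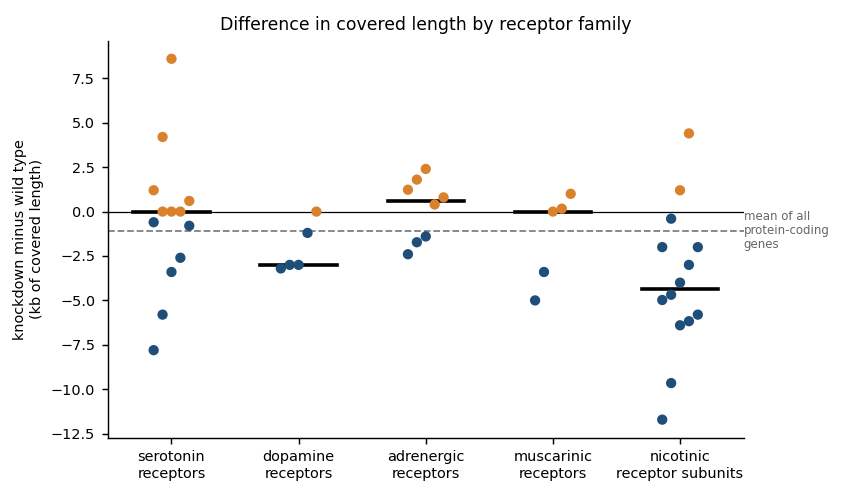
Difference in covered length, knockdown minus wild type, in kb for each receptor gene (points, blue below 0), by family, with a bar at each family's median and a dashed line at the mean of all protein-coding genes (-1.09 kb). The medians are -4.34 kb for nicotinic subunits, -3.0 kb for dopamine, 0.0 kb for serotonin and muscarinic, and 0.6 kb for adrenergic receptors.

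Of the serotonin receptor genes with a listed start, 9 had it inside a wild-type peak and 8 inside a knockdown peak, and all of these encode G protein-coupled receptors. HTR1A, the autoreceptor of serotonin neurons (chromosome 5, 63957874 to 63962445), lay in a peak of 5.0 kb in wild type and 4.2 kb in the knockdown list. The peak over the start of HTR1F measured 3.0 kb in both. HTR4 and HTR7, which both couple to Gs, had start peaks of 2.8 and 4.4 kb in wild type and of 3.4 and 3.8 kb in the knockdown list. HTR5A, coupled to Gi/o, had 2.8 and 4.0 kb. These start peaks differed by at most 1.2 kb between the lists, in both directions.

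HTR1B and HTR1D, the receptors at which the triptan migraine drugs act, had less covered length in the knockdown list. At HTR1D (chromosome 1, 23191895 to 23217502) it was 14.4 kb in wild type and 6.6 kb in the knockdown list. Its start peak measured 8.8 and 5.4 kb, and a wild-type peak of 5.6 kb inside the gene, next to its other end, met no knockdown peak. That second peak ranked at the 1.87th percentile of score in its own list, so a large share of the difference rested on a region near the lower limit of the list. At HTR1B an 8.2 kb peak in wild type stood where the knockdown list had peaks of 3.4 and 2.2 kb.

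HTR6, coupled to Gs, had the longest covered length of the serotonin receptors (chromosome 1, 19664875 to 19680966), with 28.7 kb in wild type and 22.9 kb in the knockdown list. Its start lay in a wild-type peak of 33.6 kb that also touched NBL1 and the readthrough gene MICOS10-NBL1, and in a knockdown peak of 12.2 kb that touched the same genes. HTR1E (chromosome 6, 86937528 to 87016679), coupled to Gi/o, had a single wild-type peak of 3.4 kb over its start (86935601 to 86939000) and none in the knockdown list, whose nearest peak lay 213.3 kb away. The wild-type peak scored 4.98, at the 9.54th percentile of its list, and was gone from the upper 50% of peaks.

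The serotonin-gated channel genes HTR3A and HTR3B, which lie side by side on chromosome 11, had more covered length in the knockdown list. At HTR3B (113898923 to 113949079) it was 0.879 kb in wild type and 9.48 kb in the knockdown list, the largest increase of the 45 genes. A knockdown peak of 3.8 kb at its far end made it the only receptor gene marked in the knockdown list alone. That peak ranked at the 8th percentile of score, and another of 4.2 kb at the 5.95th. HTR3A had 2.6 kb in wild type and 6.8 kb in the knockdown list. With lists of equal length, which drop the lowest-scored knockdown peaks, HTR3A turned to 2.6 and 1.2 kb. The added length at both genes therefore lay mostly in low-ranked peaks.

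HTR2A, the Gq/11-coupled receptor at which psychedelic drugs act, and HTR2B had no peak within 10 kb of either end in either list. The nearest peak to an HTR2A start lay 97.7 kb away in wild type and 97.1 kb in the knockdown list.

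Of the dopamine receptors, 4 of 5 had covered lengths at least 1 kb shorter in the knockdown list and none longer. Of all protein-coding genes 40.5% were shorter and 20.2% longer. Within 5 kb of the gene ends 2 of 5 dopamine receptors were shorter, DRD2 and DRD5, where 34.3% of all genes were. DRD1, the main Gs-coupled dopamine receptor (chromosome 5, 175440036 to 175444182), had 8.8 kb in wild type and 5.8 kb in the knockdown list. Its start peak was nearly equal, 6.0 and 5.8 kb, and the difference came from a further wild-type peak beyond the gene. That peak ranked at the 15.1st percentile of score, and among the upper 50% of peaks DRD1 had 6.0 and 5.8 kb. DRD2, the Gi/o-coupled receptor that antipsychotic drugs block (chromosome 11, 113409605 to 113475398), had a single peak at one end, of 6.0 kb in wild type and 3.0 kb in the knockdown list. The knockdown peak lay wholly inside the wild-type peak, and the pair ranked at the 86.2nd and 87.5th percentiles of their own lists.

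DRD5, the other Gs-coupled dopamine receptor (chromosome 4, 9781634 to 9784009), had the highest-ranked peak of the 3 genes marked in 1 list alone. A wild-type peak of 3.2 kb covered its start (9779801 to 9783000) with a score of 42.7, at the 76.9th percentile of the list. The nearest knockdown peak lay 23.2 kb from the start. This was the single receptor gene still marked in wild type alone among the upper 50% of peaks. The peak also touched SLC2A9, a urate transporter gene.

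DRD4, coupled to Gi/o, had the longest covered length of the dopamine receptors (chromosome 11, 637269 to 640706), 19.3 kb in wild type and 18.1 kb in the knockdown list. A wild-type peak of 39.8 kb ran from PHRF1 to DEAF1 (606801 to 646600), across IRF7, CDHR5, SCT and DRD4. Its place was taken by knockdown peaks of 20 and 15.2 kb, of which the second touched DRD4 and DEAF1. Within 5 kb of its ends DRD4 was fully covered in both lists, at 13.4 kb. DRD3 had no peak within 10 kb of either end in either list. Further inside the gene lay a peak of 6.2 kb in wild type and one of 3.8 kb in the knockdown list.

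All 8 adrenergic receptor genes were marked in both lists, where 69.4% of all genes were in each. In the knockdown list 3 (37.5%) were at least 1 kb shorter and 3 (37.5%) at least 1 kb longer, beside 40.5% and 20.2% of all genes. The alpha-2 receptors couple to Gi/o. ADRA2C (chromosome 4, 3766385 to 3768526) had 20.5 kb in wild type and 18.8 kb in the knockdown list, or 92.8% and 85.0% of its window, and its start peak measured 16.6 and 8.0 kb. ADRA2B (chromosome 2, 96112876 to 96116571) had 19.7 and 21.5 kb, a difference that was 0.0 kb within 5 kb of its ends and turned to -1.68 kb within 20 kb. ADRA2A had a start peak of 4.4 kb in wild type and 4.8 kb in the knockdown list.

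ADRB1, the Gs-coupled receptor of heart muscle (chromosome 10, 114043866 to 114046904), lay in a start peak of 6.0 kb in wild type and 8.4 kb in the knockdown list. Its peak scored at the 90.1st and 94.4th percentiles of its own lists, and the whole wild-type peak lay inside the knockdown peak. ADRB3, the receptor of fat tissue, had 5.4 and 6.2 kb. Both beta receptors thus had values in the knockdown list that were no lower than in wild type.

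The alpha-1 receptors couple to Gq/11. ADRA1A had 6.8 kb in wild type and 5.4 kb in the knockdown list, in 1 peak each. ADRA1D had 17.4 and 18.6 kb, a direction that turned within 5 kb of its ends (14.9 and 11.3 kb) and among the upper 50% of peaks (15.2 and 13.4 kb). ADRA1B had 5.8 and 3.4 kb. The start listed for ADRA1B (chromosome 5, 159916482), which lies inside the annotated gene, was in a wild-type peak of 3.6 kb at the 8.29th percentile of score, and the nearest knockdown peak lay 54.1 kb away.

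Of the muscarinic receptors, CHRM1 and CHRM4 lay in broad covered stretches and CHRM2 and CHRM3 in narrow start peaks. CHRM5 had no peak near either end. CHRM1, the main Gq/11-coupled muscarinic receptor of the forebrain (chromosome 11, 62908679 to 62921878), had the longest covered length of this family, 25.1 kb in wild type and 20.1 kb in the knockdown list. Its start peak was slightly wider in the knockdown list, 17.4 beside 16.4 kb. At CHRM4, coupled to Gi/o, the covered length was 19.4 and 19.6 kb, and the peak over its start (18.8 and 16.8 kb) also touched MDK and DGKZ.

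CHRM3, the Gq/11-coupled receptor of glands and smooth muscle, had a start peak of 5.8 kb in wild type and 2.4 kb in the knockdown list, the knockdown peak lying inside the wild-type peak. CHRM2, the Gi/o-coupled receptor that slows the heart, had 5.2 and 6.2 kb. CHRM5 (chromosome 15, 33968497 to 34067458) had no peak within 10 kb of either end. Its start lay 67.9 kb from a wild-type peak and 67.3 kb from a knockdown peak. These peaks, of 5.6 and 3.8 kb, lay inside the gene.

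The nicotinic subunits held 4 of the 5 largest decreases of the set. Of their 14 genes 11 (78.6%) were at least 1 kb shorter in the knockdown list, where 40.5% of all genes were. Another 2 (14.3%) were longer, where 20.2% of all genes were. All 5 subunits of the muscle receptor were among the 11 shorter genes. Their mean covered length was 21.5 kb in wild type and 15.6 kb in the knockdown list (-27.4%), and the 9 neuronal subunits had 10.5 and 7.67 kb (-27.1%). The count depended on the window. Within 5 kb of the gene ends 6 of the 14 nicotinic genes were at least 1 kb shorter and none longer, and the mean difference was -21.3%. Over all protein-coding genes 34.3% were shorter and 18.1% longer in that window, with a mean difference of -10.9%.

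CHRNB1, the beta subunit of the muscle receptor (chromosome 17, 7445061 to 7457710), had the longest covered length in wild type and the largest decrease of all 45 genes. Its covered length was 31.5 kb in wild type and 19.7 kb in the knockdown list. A wild-type peak of 30.8 kb (7434001 to 7464800) touched TMEM102, FGF11, CHRNB1 and ZBTB4. In the knockdown list that stretch held a peak of 14.6 kb with the same left edge and peaks of 2.4 and 3.8 kb over the gene's far side. A further wild-type peak of 6.6 kb met no knockdown peak.

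CHRNE, the subunit of the adult muscle receptor (chromosome 17, 4897771 to 4908677), had 21.0 kb in wild type and 14.8 kb in the knockdown list. Among the upper 50% of peaks it had 16.4 and 14.8 kb. Its start peak, shared with MINK1 and C17orf107, measured 16.4 and 11 kb. CHRNG, which CHRNE replaces in mature muscle, lies beside CHRND on chromosome 2, and both shared peaks. A wild-type peak of 25 kb (232517601 to 232542600) covered CHRND and part of CHRNG, where the knockdown list had peaks of 13.2 and 10 kb. The covered lengths were 28.4 and 23.5 kb at CHRND and 20.3 and 18.3 kb at CHRNG, and at CHRNG the direction turned within 5 kb of its ends (15.3 and 16.0 kb).

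CHRNA1, the muscle subunit that carries the acetylcholine site (chromosome 2, 174747592 to 174764472), had no peak within 2 kb of its ends in either list. Its covered length of 6.48 kb in wild type and 1.8 kb in the knockdown list lay more than 5 kb from the gene, and it turned to 0.0 and 1.8 kb among the upper 50% of peaks.

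CHRNA5, CHRNA3 and CHRNB4, which together form receptors of autonomic ganglia, lie side by side on chromosome 15 (78565520 to 78661641). All 3 had less covered length in the knockdown list. CHRNA3 had 13.9 kb in wild type and 4.2 kb in the knockdown list, the second largest decrease of the 45 genes. CHRNB4 had 10.6 and 4.24 kb, and CHRNA5 11.1 and 5.27 kb. Most of the CHRNA5 difference lay in a peak inside CHRNA3, and among the upper 50% of peaks CHRNA5 had 4.2 and 3.8 kb. There CHRNA3 had 9.2 and 4.2 kb, and CHRNB4 kept its values. The peak over the start of CHRNA3, which reaches the end of CHRNB4, measured 9.2 kb in wild type (78616401 to 78625600). The knockdown peak there measured 4.2 kb (78618401 to 78622600). A wild-type peak of 9.4 kb inside CHRNA3 faced a knockdown peak of 2.4 kb. Because these peaks are counted for more than 1 gene, the 3 values are not independent.

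**Figure D3:**
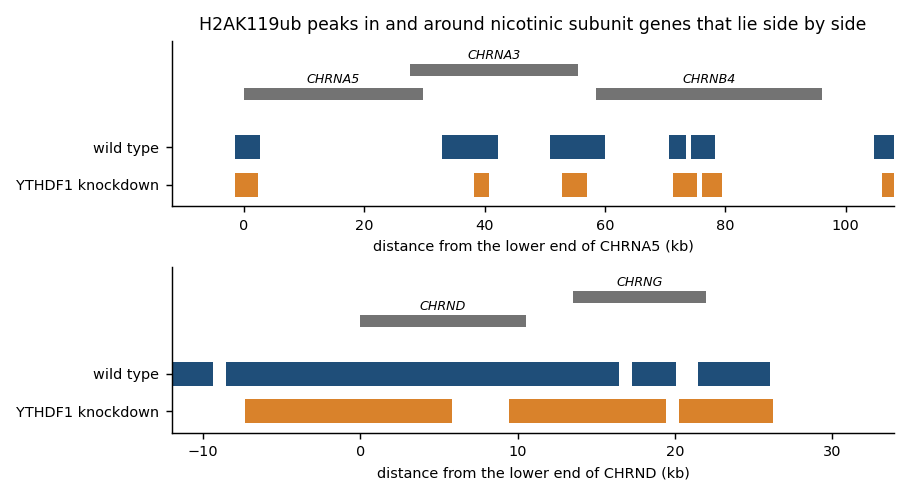
Peaks of both lists (blue, wild type; orange, knockdown) along CHRNA5, CHRNA3 and CHRNB4 on chromosome 15 (top) and CHRND and CHRNG on chromosome 2 (bottom), with grey bars for the genes and distance in kb from the lower end of the first gene. The 9.4 and 9.2 kb wild-type peaks in CHRNA3 stand over knockdown peaks of 2.4 and 4.2 kb, and the 25 kb wild-type peak over CHRND stands over knockdown peaks of 13.2 and 10 kb.

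Inside CHRNB4, further than 10 kb from its ends and so outside the covered length, the difference was small. The listed start (78641210) lay in a wild-type peak of 4.0 kb. In the knockdown list it lay in a gap between peaks of 4.0 and 3.4 kb, 0.391 kb from the nearer one. CHRNB4 was thus called at its start in wild type alone although knockdown peaks stood on either side.

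The subunits of the common brain receptors differed less. CHRNA4 (chromosome 20, 63343223 to 63361349) had 31.1 kb in wild type and 29.1 kb in the knockdown list, and turned to 27.9 and 29.1 kb among the upper 50% of peaks. CHRNB2, its usual partner, had 8.62 and 9.82 kb, and turned to 8.62 and 6.22 kb there. CHRNA7, which forms receptors of a single kind of subunit, had a start peak of 4.4 and 4.0 kb. CHRNA2 had 8.0 and 12.4 kb, the second largest increase of the set, but 5.8 and 3.0 kb among the upper 50% of peaks. CHRNA9, of the receptor of cochlear hair cells, and CHRNB3 each had 1 wild-type peak, of 4.0 and 3.0 kb at the 2.08th and 29.6th percentiles, outside 2 kb of the gene, and no knockdown peak.

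Starts inside peaks could be counted for 33 of the 45 genes, those matched in the RefSeq promoter table. In wild type 27 of them (81.8%) had a listed start inside a peak, beside 64.1% of all protein-coding genes with a listed start. In the knockdown list 23 (69.7%) had one, beside 64.6% of all. DRD5, HTR1E, ADRA1B and CHRNB4 made up the 4 (12.1%) with a start inside a wild-type peak alone, where 6.22% of all genes were, and no receptor gene had a start inside a knockdown peak alone, where 6.81% of all were. Among the upper 50% of peaks the counts were equal, 21 in each list.

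**Figure D4:**
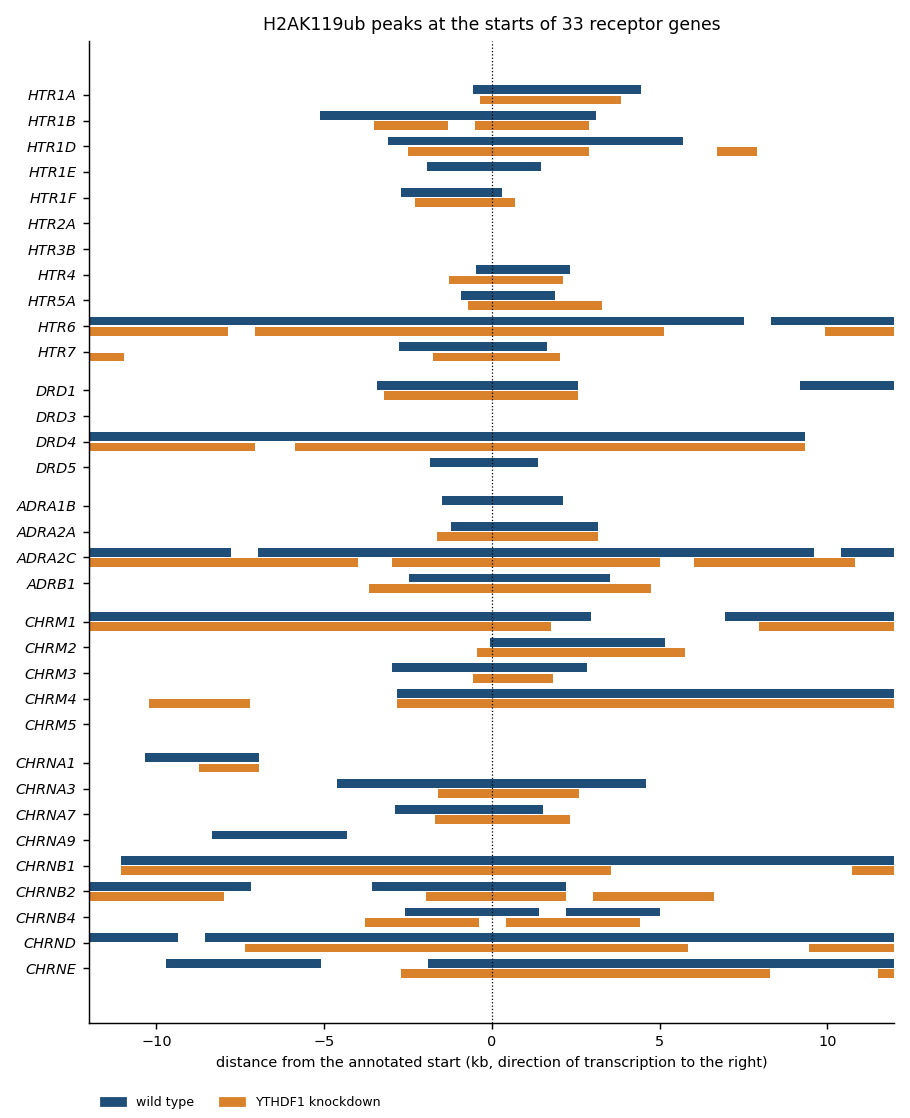
Peaks of both lists (blue, wild type; orange, knockdown) within 12 kb of the first listed start of 33 receptor genes, with distance in kb along the direction of transcription. Peaks of both lists lie over most starts, the starts of DRD5, HTR1E and ADRA1B lie in a wild-type peak with no knockdown peak plotted, CHRNA9 has a wild-type peak away from its start alone, and the start of CHRNB4 falls in a gap between knockdown peaks.

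Peak by peak, most regions near receptor genes overlapped a peak of the other list by at least 1 bp. Within 10 kb of the receptor genes lay 62 wild-type and 68 knockdown peaks. Of these, 51 (82.3%) and 58 (85.3%) shared at least 1 bp with a peak of the other list, beside 71.4% and 74.1% over the whole lists. With at least 50% of both peaks required to overlap, 38 of the 62 and 37 of the 68 were shared. The whole lists were not counted by this stricter rule. The median width of the peaks near receptor genes was 5.8 kb in wild type and 4.2 kb in the knockdown list. Over the whole lists it was 4.4 and 3.6 kb, and wider peaks can meet a peak of the other list more easily. Peaks of 20 kb or more numbered 6 (9.68%) and 2 (2.94%), beside 2.83% and 1.75% of the whole lists.

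Near receptor genes 36 wild-type peaks could be paired with a single knockdown peak that met no other. The knockdown member was the narrower one in 23 pairs and the wider one in 12, the widths were equal in 1, and the median width ratio was 0.852. For the 16 pairs that lay over a receptor gene's own start the same counts were 9, 6 and 1 and the median ratio was 0.938, which leaves out start peaks that met more than 1 peak of the other list. Over the 16990 such pairs of the whole lists it was narrower in 59.8%, with a median ratio of 0.889. The widest start peaks, at DRD4, HTR6, CHRNB1 and CHRND, were 39.8, 33.6, 30.8 and 25 kb in wild type. Each met several knockdown peaks, of which the one at the start measured 15.2, 12.2, 14.6 and 13.2 kb. All knockdown peaks together covered 88.4%, 81.0%, 67.5% and 80.8% of these wild-type peaks.

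Neighbouring genes shared many of these stretches. At 17 receptor genes a peak within the window also touched another protein-coding gene, so the covered length there does not belong to the receptor gene alone. The same count was not made over all protein-coding genes. Of the 24 receptor genes with peaks that touched no other protein-coding gene, 12 were at least 1 kb shorter and 6 longer in the knockdown list. The mean covered length of these 24 receptor genes was 7.08 and 6.09 kb (-14.0%, beside -12.4% over all protein-coding genes). The part of neighbouring genes in the differences was not tested.

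Starts in no peak held fewer CG than most starts in peaks. The 33 genes had 41 listed starts, and CG was counted in windows from 250 bases before to 50 bases after each. The 11 starts in no peak held 3 to 9 CG with a median of 3. The 26 starts in a peak of both lists held 5 to 51 with a median of 23.5, and the 4 in a wild-type peak alone held 16 to 37 with a median of 29.5. ADRA2C, HTR7 and CHRM4 had 51, 50 and 44 CG, and HTR1A and CHRNE, whose starts lay in peaks of both lists, had 5 and 6. Over all protein-coding genes the medians were 5 CG for starts in no peak, 28 for starts in both and 18 for starts in wild type alone.

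None of the 7 receptor gene starts with 0 to 4 CG lay in a peak, where 15% of such starts of all genes did in wild type and 14% in the knockdown list. All 16 receptor gene starts with 25 or more CG lay in a wild-type peak and 13 in a knockdown peak, beside 85.0% and 86.2% of such starts of all genes. The exceptions were DRD5, ADRA1B and CHRNB4. The other start in a wild-type peak alone, that of HTR1E, held 16 CG and so lay outside this range.

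**Figure D5:**
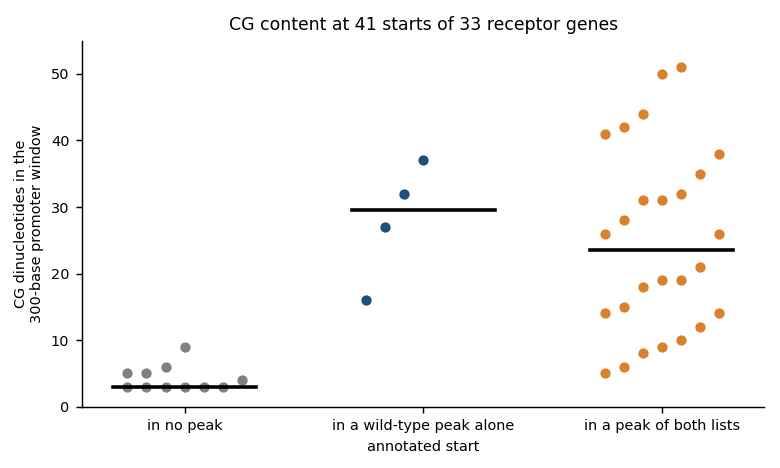
Number of CG dinucleotides in the 300-base promoter window of 41 listed starts of 33 receptor genes, for starts in no peak, in a wild-type peak alone and in a peak of both lists, with a bar at each median. Starts in no peak hold 3 to 9, while starts in a peak of both lists hold 5 to 51.

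The set divides into channels and G protein-coupled receptors. The 16 ligand-gated channel subunits had a mean covered length of 12.9 kb in wild type and 10.2 kb in the knockdown list (-20.6%), with 11 at least 1 kb shorter and 4 longer. The 29 G protein-coupled receptors had 8.68 and 7.44 kb (-14.2%), with 13 (44.8%) shorter and 5 (17.2%) longer. Over all protein-coding genes 40.5% were shorter and 20.2% longer, with a mean difference of -12.4%, so the G protein-coupled receptors lay near these values. By coupling the differences were -14.8% for the 7 Gs receptors, -12.1% for the 14 Gi/o receptors and -18.0% for the 8 Gq/11 receptors. The order of these groups changed with the setting. Within 5 kb of the gene ends the differences were -13.4% for the channel subunits, -3.27% for Gs, -16.3% for Gi/o and -26.0% for Gq/11 receptors. The Gq/11 value was -7.42% within 20 kb, and the Gs value turned to 2.18% among the upper 50% of peaks. Of the 8 Gq/11 receptors 5 were marked in each list (62.5%, beside 69.4% of all genes in each). Of the 7 Gs receptors 7 were marked in wild type and 6 in the knockdown list. Differences between these groups were not tested.

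Other genes of the same pathways were counted from lists of known roles. All 30 genes for G protein alpha subunits, adenylyl cyclases, phospholipases C, receptor kinases and arrestins were marked in wild type and 29 in the knockdown list, and 18 were at least 1 kb shorter and 3 longer. GNAZ, a Gi-type alpha subunit, had the largest decrease of these 30, from 26.7 kb in wild type to 10.4 kb in the knockdown list. Of 12 genes for nicotinic receptor assembly and the endplate, 7 (58.3%) were shorter and 2 (16.7%) longer, beside the same shares of all genes. The largest decrease of these 12 was at RIC3, a chaperone of nicotinic receptors, with 23.5 and 7.04 kb. The largest increase was at RAPSN, which clusters receptors under the nerve ending, with 4.4 kb in the knockdown list and none in wild type.

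The genes that make, move and break down the transmitters gave mixed values. Over all protein-coding genes 40.5% were at least 1 kb shorter and 20.2% longer. Of 7 synthesis genes 4 were at least 1 kb shorter and 2 longer, among them DBH, which makes noradrenaline, with 9.2 kb in wild type and 21.0 kb in the knockdown list. Of 7 transport genes 4 were shorter and 1 longer. SLC5A7, which takes up choline for acetylcholine synthesis, had 3.6 kb in wild type, with its start inside a peak, and none in the knockdown list. Of 5 breakdown genes 3 were shorter and none longer. Within 5 kb of the gene ends 1 synthesis gene was shorter and 1 longer, and within 20 kb 2 were shorter and 3 longer, while 2 transport genes were shorter within 5 kb. The 39 GABA and glutamate receptor genes, as receptors of other transmitters, had means of 10.4 and 10.2 kb (-2.25%). Of them 9 (23.1%) were at least 1 kb shorter and 15 (38.5%) longer. The mean difference was 2.65% within 5 kb and -6.51% within 20 kb, and among the upper 50% of peaks 13 were shorter and 11 longer.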

How the data were processed

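H2AK119ub chromatin immunoprecipitation was analysed from 2 peak lists, 1 per group, with groups read from titles. The submitters' processing notes list the peak callers SICER 1.1 and MACS2 2.1.0, the aligner Bowtie2 2.2.5, and Trimmomatic 0.35, Picard and SAMtools 1.3.1, with hg38. Which of them made the lists, and any use of the input as control, are not given in the sources used here. Scores deposited per peak run from 2.0 to a ceiling of 1000. The score is the authors' own value with its unit not given, and was used only to rank peaks within their own list. Peak starts are multiples of 200 bp.

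Peaks on chromosomes 1 to 22 and X were kept (32791 of 32798 in wild type, 34390 of 34393 in the knockdown list). Gene ends came from the RefSeq table of GRCh38.p14, without 153 protein-coding genes given scaffold coordinates, and starts from the RefSeq promoter table, which matched 33 of 45 receptor genes. Marking, covered length and overlap were computed with Python 3.11.15, numpy 2.4.6 and pandas 2.3.3, and tested on simulated peaks. The receptor genes, the lists of other genes and the thresholds were chosen with earlier results of these data known. Named in full were genes called in 1 list alone, the longest covered of each family, and the 5 largest decreases and 5 largest increases. Genes without peaks within 10 kb of their ends and genes that share peaks were also named in full. Other gene ends, score limits, list lengths, narrow peaks and overlap rules were tried as alternatives.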

Additional observations from a re-analysis of the deposited data

How the results depend on the processing

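The mean covered length of the receptor genes was lower in the knockdown list under each alternative tried. With all 45 genes the difference was -14.4% to -19.0%, beside -10.9% to -13.7% over all protein-coding genes in the same settings. Among the upper 50% of peaks it was -14.4%, beside -13.3% over all genes. With 1 gene kept of each set with overlapping windows it was -14.6%, beside -12.4%. Without the nicotinic subunits the difference was -8.99%, a smaller decrease than the -12.4% over all genes. There 13 of 31 genes (41.9%, beside 40.5% of all genes) in place of 24 of 45 were at least 1 kb shorter. Among genes whose peaks touch no other protein-coding gene it was -14.0%, and 12 of 24 were shorter. Both of these alternatives were chosen after seeing the data. Within 5 kb of the gene ends 4 genes in place of 9 were longer, in smaller windows. Among the upper 50% of peaks 1 gene in place of 2 was marked in wild type alone and 4 in place of 1 in the knockdown list alone, and the cause was not tested. With at least 50% of both peaks required, 37 in place of 58 knockdown peaks near receptor genes were shared. The other counts stayed within 1.5 times their value. Of the 33 genes that differed by at least 1 kb, 26 kept their direction within 5 kb, 24 among the upper 50% of peaks, 32 with lists of equal length, 32 within 20 kb and 33 without peaks under 2 kb. No paired analysis was possible because each group had 1 H2AK119ub library. Unknown depth limits every call in 1 list alone.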
